A study of Homo sapiens with 6 samples.

Results

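The genes described here lay on the same side of the scrambled control (Scr) in both the CD24 KO and the RCC2 KO of DU145 cells. They were chosen by the deposited expression table itself. For every gene above 0 in all 3 columns of the table, log2(FPKM + 1) in each knockout was compared with log2(FPKM + 1) in Scr, and the gene was kept when both differences had the same sign. Of 27381 genes in the table, 16043 (58.6%) were above 0 in every column and 8111 of these were kept. The mean of both differences is called the mean change below. FPKM values relate sequenced fragments to the length of the transcript and the size of the library. Genes that were at least 1.5-fold changed in the same direction in both knockouts on this scale, 167 genes, are described by name and group.

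DU145 is a human epithelial prostate cancer line. The labels list 2 Scr libraries, 2 CD24 KO libraries and 2 RCC2 KO libraries, all without a drug or other treatment. CD24 is a small glycosylated surface protein anchored to the membrane by a lipid, and RCC2 is a chromatin- and GTPase-binding protein of cell division and migration. According to the study's methods, guides were delivered on a plasmid that also carries Cas9 and GFP, and GFP-positive cells were sorted and grown as clones. The study describes a pair of clones for each knockout, and the labels do not say which clone each library came from or whether the libraries of a group are separate cultures.

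The table holds 1 value per gene and condition, and how the libraries of a group enter it is not given in the sources used here. The RCC2 KO column bears exactly the name the labels give the first RCC2 KO library, so it may stand for that library alone or for the pair. No difference between columns has a replicate check, and no test or error could be given. Both knockouts were set against the same Scr column. A gene whose Scr value was off for a reason unrelated to either knockout would therefore appear on one side of both, and such genes cannot be told apart from genes that both knockouts moved. The side of a gene and its call against Scr are a description of how the genes were chosen. The only comparison that leaves the Scr column out is the one between the knockouts. Counts are not given, and the depth of each column is unknown. Values above 0 were listed for 17149 genes in Scr, 17480 in CD24 KO and 17226 in RCC2 KO, with sums of 451272, 388764 and 447005 FPKM.

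The DU145 label was checked on marker genes. The epithelial markers EPCAM, KRT8, KRT18 and CDH1 were present in every column, and KLK3, which encodes prostate-specific antigen, was listed at 0 in all 3. Of 21 markers of other cell types, 7 were at 0 in each column, among them the leukocyte gene PTPRC and the T cell gene CD3E. Their summed level was 41.6 FPKM in Scr, 85.9 in CD24 KO and 42.0 in RCC2 KO, most of it CD68 (37.1, 81.5 and 38.4 FPKM), a lysosomal protein that is also used as a macrophage marker. In bulk RNA a change in the share of cells of one kind and a change in RNA per cell cannot be told apart.

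Genes on the same side of Scr were divided between both directions, and most lay close to Scr. Of the genes compared, 3792 (23.6%) were higher than Scr in both knockouts, 4319 (26.9%) were lower in both, and 7932 lay on opposite sides. The median mean change was 0.20 in the genes higher in both and -0.22 in the genes lower in both, against -0.02 over all genes compared. The smaller of both changes had a median of 0.0923 (log2), and it reached 0.25 in 1252 genes, 15.4% of the genes on one side. A common sign was therefore seldom a large common difference. Genes higher in both had a median Scr level of 3.56 FPKM and genes lower in both one of 8.0 FPKM, against 6.45 FPKM for all genes compared.

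At least 1.5-fold higher in both knockouts were 77 genes (0.48% of those compared), and 90 genes (0.561%) were at least 1.5-fold lower in both. The 2-fold minimum was passed by 9 genes upward (0.0561%) and 28 downward (0.175%). Both knockouts differed from each other by less than 1.5-fold in 53 of the 77 higher genes and in 73 of the 90 lower genes (68.8% and 81.1%), against 77.6% of all genes compared and 90.3% of the genes on one side in either direction, so the called genes did not stand out for this. Of the other 24 higher genes, 19 were at least 1.5-fold lower in RCC2 KO than in CD24 KO and 5 were higher. The change was the larger one in CD24 KO for 50 of the 77 higher genes and for 45 of the 90 lower genes, compared with 66.3% of all genes compared. At the limit of the call, SLC6A3 and LINC01431 were the last genes counted as higher, with a smaller change of 0.59 each, and RTL8A, with 0.58, lay just outside, as did ELOA-AS1 with 0.58. On the lower side SLC17A7 and BIRC3 (0.59 each) were just inside, and HLA-DQB1 and SYP (0.57 each) just outside.

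**Figure D1:**
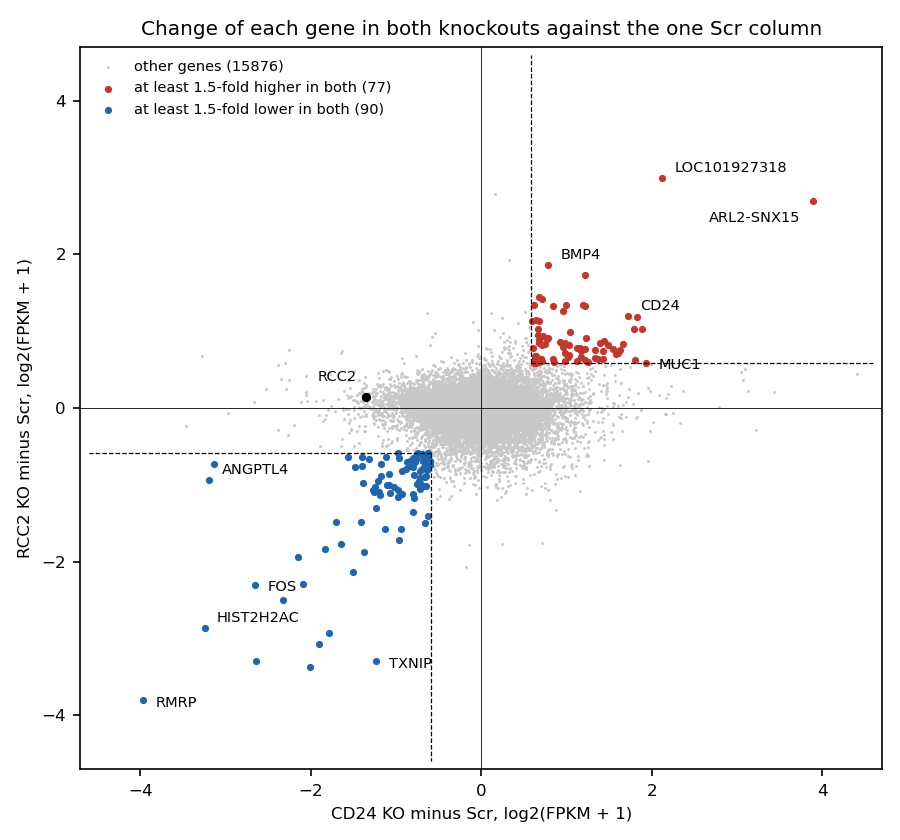
Change of every gene compared in CD24 KO (horizontal axis) and RCC2 KO (vertical axis) against the one Scr column, in log2(FPKM + 1). Dashed lines mark the 1.5-fold minimum, red points the 77 genes past it upward in both knockouts and blue points the 90 genes past it downward. The lower genes reach farther from the origin, down to RMRP at -3.96 and -3.80, and RCC2 lies on opposite sides of Scr.

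The RNA of neither targeted gene was lower in the column of its own knockout. CD24 itself was among the genes highest in both knockouts, with 93.2 FPKM in Scr, 309 for CD24 KO and 214 for RCC2 KO, or 3.31-fold and 2.3-fold the Scr value. The CD24 RNA was thus higher, not lower, in the column labelled CD24 KO. The study's methods describe guides chosen in pairs around the target sequence, and the table does not show the edit. Without the kind of edit known, the RNA level alone does not check that label. Why the CD24 value lay above Scr was not tested. RCC2 had 37.8 FPKM in Scr, 14.2 in CD24 KO and 41.8 in RCC2 KO. It lay on opposite sides of Scr and was lowest in the column labelled CD24 KO. The study checked its clones by flow cytometry, Western blotting and Sanger sequencing, none of which is part of the table. The columns are called below by their labels as deposited. If the labels of both knockout columns were exchanged, the genes described would stay the same, but an exchange with Scr would change the side of genes, and the table cannot tell these apart. The table places CD24 on chromosome Y (chrY:21034387-21438350), at a locus shared with another gene. The CD24 values above belong to this entry, and whether they reflect the edited gene alone cannot be seen in the table.

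Replication-dependent histones formed the largest group among the lower genes by the lists used. These genes encode the histones that package newly made DNA. They lie in clusters, their mRNAs accumulate in S phase, and the mRNAs typically end in a stem-loop in place of a poly(A) tail. Of 72 histone genes in the table, 35 were above 0 in every column. Of these, 24 were lower in both knockouts, 11 lay on opposite sides and 0 were higher in both, and 15 of the 35 passed the 1.5-fold minimum downward. Over all genes compared, 26.9% were lower in both and 0.561% passed the minimum downward. Of the 15 histone genes past it, HIST1H3B, HIST2H2BF, HIST1H1E, HIST1H2AM, HIST1H2AE and HIST1H2AG had at least 1 FPKM in every column. The others of the 15 had a knockout value under 1 FPKM, so their calls rest on low levels. The median mean change of the list was -0.59 (-0.47 in CD24 KO and -0.83 in RCC2 KO), against -0.02 over all genes compared. The other 37 histone genes were at 0 in at least 1 column. Among them 5 were above 0 in Scr and listed at 0 in both knockouts, and 0 showed the reverse. Over all genes of the table, 376 were above 0 in Scr and at 0 in both knockouts, and 405 showed the reverse.

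HIST2H2AC, an H2A gene of the cluster on chromosome 1 (chr1:149858525-149858961), was the lowest histone gene, with 10.4 FPKM in Scr, 0.20 in CD24 KO and 0.56 in RCC2 KO. HIST1H3B, an H3 gene on chromosome 6, had 10.8 FPKM in Scr and 1.77 and 1.42 in CD24 KO and RCC2 KO. HIST2H2BF, an H2B gene, had 11.8 FPKM in Scr and the same value, 2.6, to the first decimal in both knockouts. In these genes both knockouts lay near each other and far below Scr. The linker histone gene HIST1H1E was lower in RCC2 KO (1.01 FPKM) than in CD24 KO (2.10 FPKM), with 7.81 FPKM in Scr. Members with the highest levels were nearer to Scr: HIST1H1C, also a linker histone gene, had 338, 276 and 221 FPKM, and HIST1H2BK had 464, 358 and 421 FPKM in Scr, CD24 KO and RCC2 KO. These last genes were chosen after their values were seen. Histone genes are near copies of each other within a family, so reads can be divided between them.

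**Figure D2:**
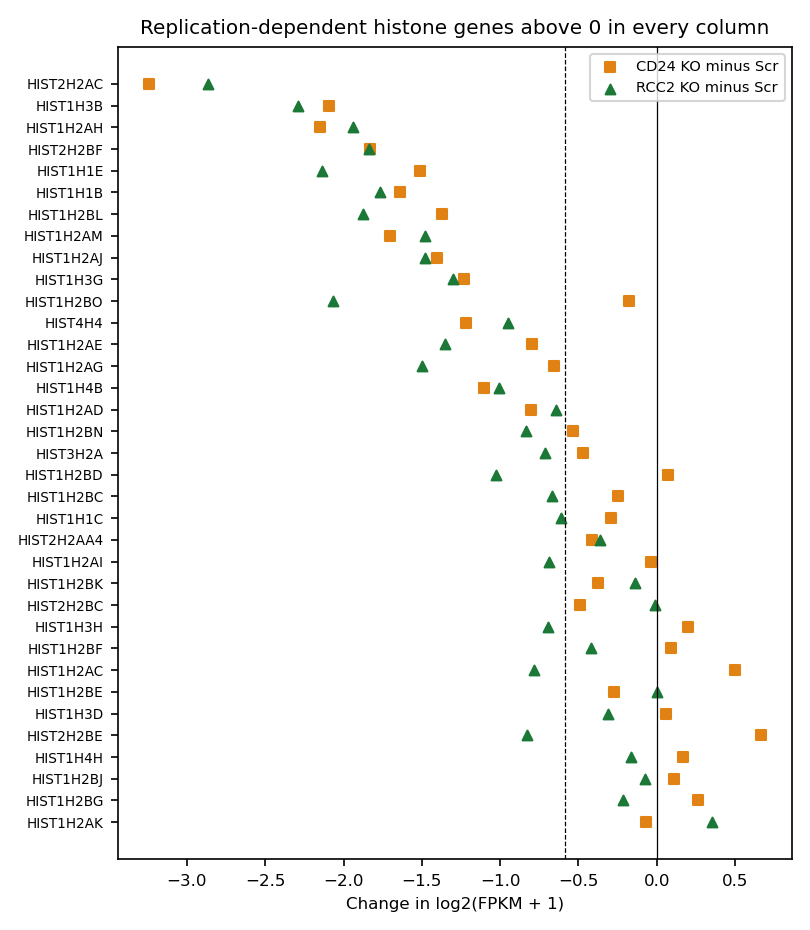
Change from Scr in log2(FPKM + 1) of the 35 replication-dependent histone genes above 0 in every column, for CD24 KO (squares) and RCC2 KO (triangles), ordered by mean change. The dashed line marks the 1.5-fold minimum, with both symbols of 15 genes to its left, and the 11 genes with symbols on both sides of 0 lie below the middle of the plot.

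The list of proliferation genes did not share this pattern. It holds factors of DNA replication and mitosis that are also made in S phase or later. None of its 35 members was at least 1.5-fold changed in the same direction in both knockouts, against 0.48% higher and 0.561% lower over all genes compared. Of the 35, 9 were lower in both (25.7%, near the 26.9% of all genes). The other 26 lay on opposite sides (74.3%, against 49.4%). The median change was -0.98 in CD24 KO and 0.06 in RCC2 KO. By their medians the histone genes were lower in both columns and the proliferation genes in the CD24 KO column.

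The promoters of the lower histone genes were read from RefSeq (GRCh38.p14) because they show what these genes share in sequence. Replication-dependent histone promoters are known for CCAAT boxes and, in H2A and H2B genes, for an octamer bound by OCT1. The 200 bases before the start site are printed for 3 genes with the octamer and, for contrast, for HIST1H4B, in which neither motif was found. Capitals mark the octamer ATTTGCAT and the CCAAT box, each on either strand.
HIST2H2AC (chr1:149886718-149886917, plus strand): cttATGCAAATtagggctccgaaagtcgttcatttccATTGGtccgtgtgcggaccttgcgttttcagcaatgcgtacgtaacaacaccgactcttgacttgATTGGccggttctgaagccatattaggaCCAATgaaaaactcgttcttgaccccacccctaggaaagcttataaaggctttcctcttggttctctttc
HIST2H2BF (chr1:149812371-149812570, minus strand): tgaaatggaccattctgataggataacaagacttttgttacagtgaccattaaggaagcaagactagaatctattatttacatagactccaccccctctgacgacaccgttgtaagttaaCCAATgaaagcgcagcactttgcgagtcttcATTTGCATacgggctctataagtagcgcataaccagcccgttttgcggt
HIST1H2AM (chr6:27893186-27893385, minus strand): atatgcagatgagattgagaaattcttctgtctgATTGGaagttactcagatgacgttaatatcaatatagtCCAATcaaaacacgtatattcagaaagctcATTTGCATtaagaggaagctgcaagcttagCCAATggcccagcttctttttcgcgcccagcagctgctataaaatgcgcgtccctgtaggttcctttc
HIST1H4B (chr6:26027284-26027483, minus strand): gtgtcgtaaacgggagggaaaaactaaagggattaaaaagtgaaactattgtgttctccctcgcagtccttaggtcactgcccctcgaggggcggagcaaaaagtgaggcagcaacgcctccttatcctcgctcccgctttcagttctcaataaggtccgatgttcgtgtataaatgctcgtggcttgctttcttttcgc
HIST2H2AC and HIST1H2AM each hold 3 CCAAT boxes in this stretch, and HIST2H2BF holds 1. In FPKM, HIST1H2AM had 14.3 in Scr, 3.71 in CD24 KO and 4.49 in RCC2 KO, and HIST1H4B, without either motif, had 1.85, 0.32 and 0.42.

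Over the 250 bases before the start site, the octamer was in 7 of the 14 lower histone genes with a promoter in the RefSeq table and in 1.31% of the 12322 genes compared. It was in 0 of the 51 higher genes and in 0 of the 46 lower genes that are not histones. Histone genes that were compared but did not pass the 1.5-fold minimum held it in 6 of 15, so the octamer was about as frequent in histone genes outside the call as inside it. The CCAAT box was in 12 of the 14 lower histone genes and in 14 of the 15 other histone genes, against 34.4% of all genes compared. The remaining lower genes held it in 18 of 46. For 27 of the called genes the RefSeq table has more than 1 start site, and the first was used.

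**Figure D3:**
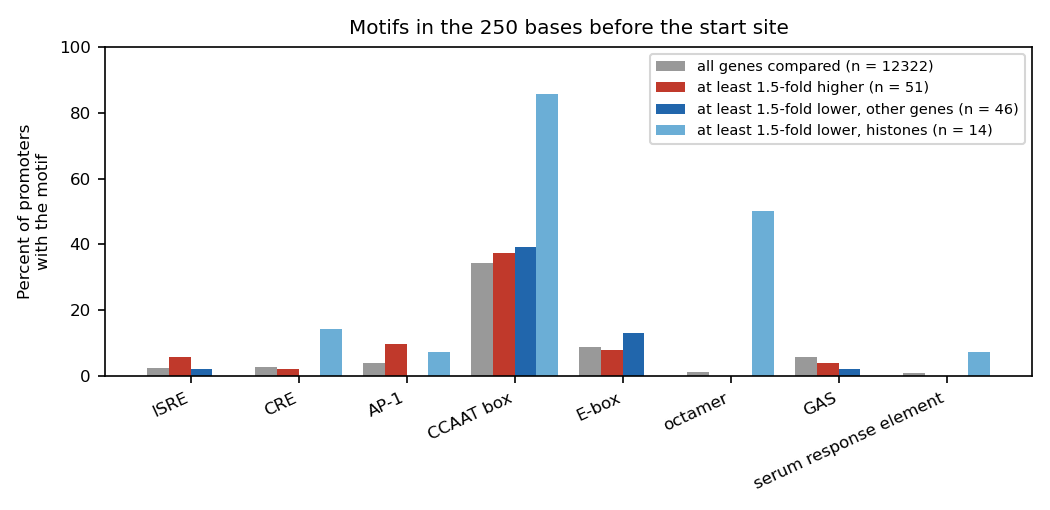
Percent of promoters (vertical axis, from 0) with each of 8 motifs in the 250 bases before the start site, for all genes compared (n = 12322), genes at least 1.5-fold higher (n = 51), lower genes other than histones (n = 46) and lower histone genes (n = 14). The lower histone genes stand apart for the octamer and the CCAAT box, and the higher and other lower genes stay near the grey bars of all genes for most motifs.

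Small structural RNAs were the other group among the lower genes that typically lacks poly(A) tails. Such RNAs serve in RNA processing: they guide modification of ribosomal and spliceosomal RNA, or form the core of RNase P, RNase MRP and the signal recognition particle. Only 16 of them were above 0 in every column. Of these 11 were lower in both, 3 higher in both and 2 on opposite sides, with 8 past the 1.5-fold minimum downward and 2 upward, against 26.9% lower, 23.6% higher, 0.561% past the minimum downward and 0.48% upward over all genes compared. The median mean change was -0.86.

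RMRP, the RNA of RNase MRP (chr9:35657748-35658015), was the lowest of all 167 genes, with 1256 FPKM in Scr, 79.6 in CD24 KO and 89.0 in RCC2 KO, or 6.34% and 7.08% of the Scr value. RPPH1, the RNA of RNase P, had 165 FPKM in Scr, 40.3 in CD24 KO and 15.1 in RCC2 KO. RN7SL3, a copy of the signal recognition particle RNA, had 40.7 FPKM in Scr, 5.66 in CD24 KO and 3.26 in RCC2 KO. In each of these RNAs Scr was far above both knockouts. RNA28S4, a ribosomal RNA gene on an unplaced contig, was likewise at 406 FPKM in Scr, 80.3 in CD24 KO and 71.1 in RCC2 KO. The Cajal body RNA SCARNA7 (9.98, 1.93 and 0.31 FPKM) and the H/ACA small nucleolar RNA SNORA73B (71.5, 20.01 and 8.52 FPKM) were lowest in RCC2 KO. SCARNA10 and SNORD17 were also past the minimum, at 39.1% and 50.2% of Scr in CD24 KO and 13% and 30.8% in RCC2 KO.

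Not all small RNAs were lower. SNORA8 was one of the 12 highest of the called genes by mean change, with 108 FPKM in Scr, 253 in CD24 KO and 363 in RCC2 KO, and SNORA12 had 70.4, 213 and 115 FPKM. SNORA8 shares its locus in the table (chr11:93394816-93474703) with SNORA40, which was lower in both knockouts with 842, 432 and 535 FPKM. RNAs of this size are shorter than a usual sequenced fragment, and their FPKM values rest on few possible positions. By the labels, libraries were made from total RNA with a TruSeq RNA kit, whereas the study's methods name a stranded mRNA kit. How completely RNA without a poly(A) tail was removed in each library has no value in the table. The lower histone mRNAs and the lower small RNAs belong to classes that typically lack a poly(A) tail. Whether each of them lacks it cannot be seen in FPKM values, and its part in their level was not tested.

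**Figure D4:**
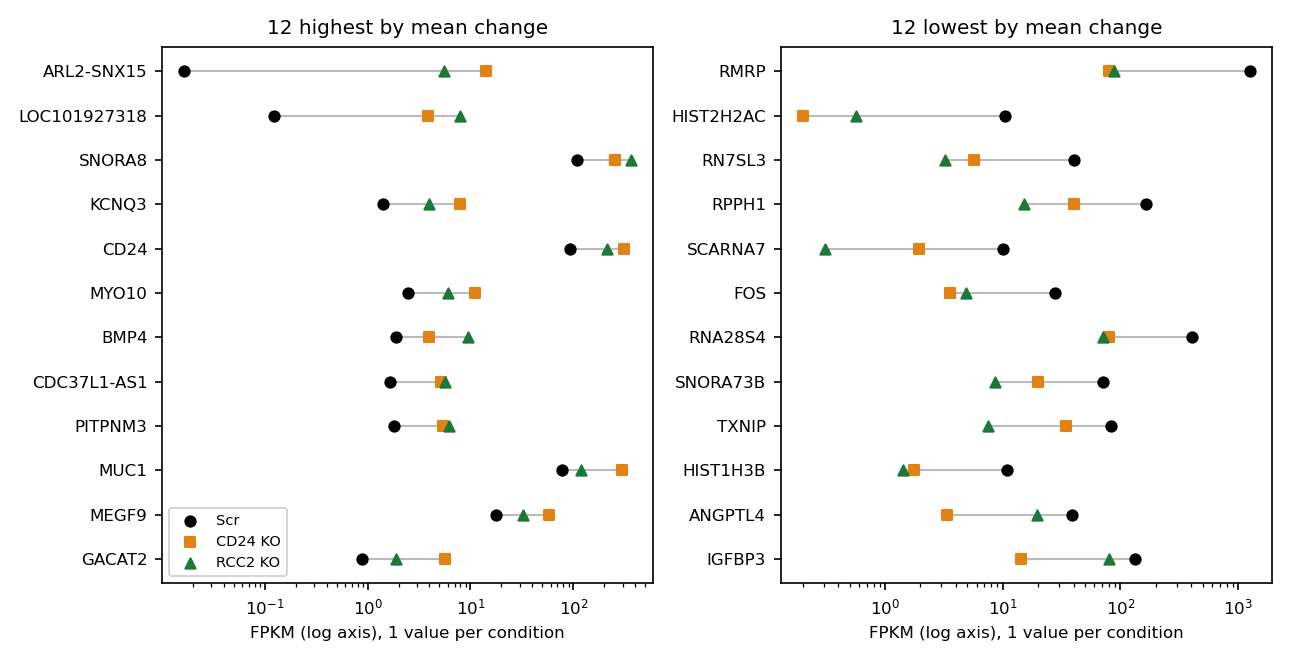
FPKM (log axis) of the 12 genes highest and the 12 lowest by mean change, with 1 value per condition: Scr (circles), CD24 KO (squares) and RCC2 KO (triangles). Among the lowest genes RMRP has the highest level (1256 FPKM in Scr) and the others spread from 9.98 to 406 FPKM in Scr, while ARL2-SNX15 and LOC101927318 are close to 0 in Scr.

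FOS, a subunit of the AP-1 transcription factor and an immediate early gene that responds to growth factors within minutes, was far lower in both knockouts. It had 27.8 FPKM in Scr, 3.58 in CD24 KO and 4.84 in RCC2 KO, or 12.9% and 17.4% of Scr. The rest of the immediate early and AP-1 list did not follow it. Of 36 genes compared, 14 were lower in both (38.9%), 10 higher in both (27.8%) and 12 on opposite sides (33.3%). Over all genes compared these shares were 26.9%, 23.6% and 49.4%. FOS was the only one of the 36 past the 1.5-fold minimum, passed downward by 0.561% of all genes. The median mean change of the list was 0.09. EGR1, which responds to the same signals, had 87.2 FPKM in Scr, 81.7 in CD24 KO and 43.4 in RCC2 KO. JUN, the partner of FOS in AP-1, had 23.8, 27.2 and 28.0 FPKM. EGR1 and JUN were chosen after their values were seen.

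TXNIP, an arrestin-family protein that binds thioredoxin and limits glucose uptake, had 82.9 FPKM in Scr, 34.7 in CD24 KO and 7.52 in RCC2 KO. It was lower in both, and RCC2 KO minus CD24 KO was -2.07 in log2(FPKM + 1). The table places TXNIP at a locus that other genes share. It was the only one of the 5 arrestins compared that passed the minimum, against 0.561% downward over all genes compared.

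Genes of hypoxia and glycolysis were mostly on the lower side of Scr, and more so in CD24 KO. This list holds targets of hypoxia-inducible factor and the enzymes that convert glucose to lactate. Of 33 genes compared, 21 were lower in both, 2 higher in both and 10 on opposite sides, and 3 passed the 1.5-fold minimum, all downward, against 26.9% lower in both and 0.561% past the minimum downward over all genes compared. The median mean change was -0.45, with a median of -0.76 (CD24 KO) and one of -0.17 (RCC2 KO). ANGPTL4, a secreted inhibitor of lipoprotein lipase, had 38.6 FPKM in Scr, 3.33 in CD24 KO and 19.6 in RCC2 KO. NDRG1, a stress-induced gene tied to differentiation, was at 156, 78.5 and 69.1 FPKM, and the glucose transporter SLC2A3 at 0.88, 0.11 and 0.24 FPKM. NDRG1 was thus at 50.5% of Scr in CD24 KO and 44.4% in RCC2 KO. ANGPTL4 was at 50.9% of Scr in RCC2 KO and fell further, to 8.64%, in CD24 KO. The glycolytic enzymes GAPDH (2723, 969 and 1927 FPKM) and LDHA (710, 308 and 597 FPKM), chosen after their values were seen, were lower in both without passing the minimum in RCC2 KO. VEGFA, a further target of hypoxia-inducible factor, lay on the other side, with 64.1, 120 and 80.4 FPKM.

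IGFBP3, which binds insulin-like growth factors outside the cell, was among the 12 lowest genes with 133 FPKM in Scr, 14.3 in CD24 KO and 79.7 in RCC2 KO. With ANGPTL4 it was one of the genes in which the knockouts stood farthest apart.

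The epithelial list had called genes in both directions. Of 25 genes compared, 8 were higher in both (32%) and 6 lower in both (24%), near the 23.6% and 26.9% of all genes compared, with 2 past the minimum in each direction and a median mean change of -0.02, equal to that of all genes to this decimal. JUP (plakoglobin) and DSP (desmoplakin) are linked proteins of the desmosome, the junction that ties keratin filaments of neighbouring cells. JUP had 89.0 FPKM in Scr, 44.7 in CD24 KO and 42.0 in RCC2 KO, and DSP had 64.8, 24.1 and 41.2 FPKM. Both were lower, JUP to about the same level in both knockouts. MUC1, a transmembrane mucin of the apical surface, was higher, with 77.7 FPKM in Scr, 299 in CD24 KO and 118 in RCC2 KO. Its value in RCC2 KO, 1.51-fold that in Scr, was close to the minimum. The other gene of the epithelial list past the minimum upward was CD24, the targeted gene described above. ITGB5, an integrin subunit for vitronectin, was the only one of 13 integrins past the minimum, with 27.8, 12.6 and 15.0 FPKM. Over all genes compared, 0.48% passed the minimum upward and 0.561% downward.

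SCARB1, a receptor for high-density lipoprotein, had 144 FPKM in Scr, 70.4 in CD24 KO and 70.1 in RCC2 KO. C15orf48, a mitochondrial protein gene, had 473, 159 and 303 FPKM, and SOCS3, a feedback inhibitor of cytokine signalling, had 14.9, 5.03 and 8.38 FPKM. These 3 genes are on no list and were chosen after their values were seen, as examples with levels well above 1 FPKM. SCARB1 was the one in which the knockouts lay closest together.

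BMP4, a ligand of the bone morphogenetic protein family that signals through SMAD proteins, was higher in both knockouts, with 1.89 FPKM in Scr, 3.98 in CD24 KO and 9.50 in RCC2 KO. BMP6, a ligand of the same family, was lower, with 1.38, 0.55 and 0.53 FPKM. Of 17 BMP ligands, receptors and targets compared, 2 were higher in both (11.8%) and 6 lower in both (35.3%), against 23.6% and 26.9% of all genes. BMP4 and BMP6 were the only members past the minimum, passed upward by 0.48% and downward by 0.561% of all genes. The target ID1 had 46.8, 42.4 and 46.0 FPKM, a small difference beside that of BMP4, and was chosen after its value was seen.

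Interferon-stimulated genes, which cells use to sense and restrict viral RNA, lay mostly on the higher side. Of 43 genes compared, 24 were higher in both, 2 lower in both and 17 on opposite sides, against 23.6% higher and 26.9% lower in both over all genes, and the median mean change was 0.17. Past the 1.5-fold minimum were 3 of them, all upward, against 0.48% over all genes. OASL, a protein related to the oligoadenylate synthases, had 3.34 FPKM in Scr, 12.5 in CD24 KO and 6.32 in RCC2 KO. IFIT2, which binds foreign RNA, had 5.43, 13.3 and 10.05 FPKM. IFI44 (chr1:79115474-79129763) had 1.34, 2.84 and 5.26 FPKM. OASL and IFIT2 were highest in CD24 KO and IFI44 in RCC2 KO, and all 3 levels were modest.

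The 80 bases before the IFI44 start site hold an interferon-stimulated response element (ISRE), the sequence through which interferon induces many of these genes. It is shown in capitals because it is the motif that most genes of the interferon list share.
IFI44 (RefSeq GRCh38.p14, chr1:78649709-78649788, plus strand): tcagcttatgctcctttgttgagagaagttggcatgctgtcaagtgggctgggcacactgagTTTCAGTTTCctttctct
An ISRE, searched on both strands with any base allowed at both middle positions of the motif shown, was in the 250 bases before the start of 21 of 33 genes of the interferon list, of 3 of the 51 genes called higher that have a promoter in the table (5.88%) and of 2.38% of all genes compared. These 3 called genes were IFI44, CDC42EP3 and TRIM16. OASL and IFIT2 were not among the promoters searched.

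Other genes among the 12 highest have diverse roles. KCNQ3, a subunit of voltage-gated potassium channels, had 1.42 FPKM in Scr, 7.90 in CD24 KO and 3.95 in RCC2 KO. MYO10, a motor protein of filopodia, had 2.45, 10.96 and 6.07 FPKM. MEGF9, a membrane protein with EGF-like domains, had 17.8, 58.3 and 32.4 FPKM. In all 3 genes CD24 KO was the highest column. PITPNM3, of the phosphatidylinositol transfer family, had 1.80, 5.42 and 6.13 FPKM, and the antisense transcript CDC37L1-AS1 had 1.67, 5.21 and 5.69 FPKM. In both of them the knockouts were nearly equal. GACAT2, a long noncoding RNA, had 0.89, 5.6 and 1.9 FPKM.

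ARL2-SNX15 and LOC101927318 had the largest mean changes, and both rest on a Scr value near 0. ARL2-SNX15, a readthrough transcript of neighbouring genes, had 0.0167 FPKM in Scr, 14.1 in CD24 KO and 5.56 in RCC2 KO. A readthrough transcript shares exons with the genes it joins, and how fragments were divided among them cannot be seen in the table. LOC101927318 had 0.125, 3.88 and 7.96 FPKM, and shares its locus (chr12:50344524-50359465) with AQP5, a water channel gene that was also higher in both. Of the called genes 26 of 77 higher and 31 of 90 lower share a locus in the table with another gene, close to 34.6% over all genes compared.

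Cytokine and stress-response lists had 1 or 2 members past the minimum each, beside 0.48% higher and 0.561% lower over all genes compared. CSF1, the growth factor of macrophages, was higher in both, with 62.7 FPKM in Scr, 100 in CD24 KO and 122 in RCC2 KO. BIRC3, an inhibitor of apoptosis induced by NF-kB, was lower, with 66.7, 33.3 and 44.0 FPKM. They were the only ones of 27 NF-kB chemokines, cytokines and related genes past the minimum. Of the 27, 12 were lower in both (44.4%) and 4 higher in both (14.8%), against 26.9% and 23.6% of all genes. SLC7A11, the cystine transporter that feeds glutathione synthesis, is on both the ATF4 and the NRF2 list and was the only member of either past the minimum, with 7.45, 12.8 and 12.1 FPKM. Of 27 ATF4 genes 14 were higher in both and 3 lower in both, against 23.6% and 26.9% of all genes, with median changes of 0.29 in the CD24 KO column and 0.05 in that of RCC2 KO. Of 23 NRF2 targets 10 were higher in both and 3 lower in both, with medians of 0.26 and 0.08 in the same order. Cholesterol synthesis showed the opposite picture: 21 of 24 genes (87.5%) lay on opposite sides of Scr, against 49.4% of all genes. Few genes of this list were therefore included, and the median change was 0.49 in CD24 KO and -0.49 in RCC2 KO.

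Among larger families, the medians of zinc finger and oxidative phosphorylation genes lay away from Scr in CD24 KO and near it in RCC2 KO. Over all genes compared, 23.6% were higher in both, 26.9% lower in both and 49.4% on opposite sides. The minimum was passed upward by 0.48% and downward by 0.561% of all genes. Of 218 zinc finger genes of chromosome 19, 89 were higher in both (40.8%) and 27 lower in both (12.4%), with 0 past the minimum. Their median change was 0.21 in CD24 KO against 0.02 in RCC2 KO. Of 37 nuclear-encoded genes of oxidative phosphorylation, 17 were lower in both (45.9%) and 5 higher in both (13.5%), with medians of -0.43 and 0.01 in CD24 KO and RCC2 KO. Of 80 cytosolic ribosomal protein genes 31 were higher in both (38.75%) and 17 lower in both (21.25%), with medians of 0.05 and 0.07, near Scr in both knockouts. RPL23A, with 38.7, 21.3 and 22.5 FPKM, was the only ribosomal protein gene past the minimum, at a locus shared with other genes. Of 19 β-catenin targets compared, 3 were higher in both (15.8%), 6 lower in both (31.6%) and 10 on opposite sides (52.6%). Their median mean change was -0.13, with BMP4 the only one past the minimum.

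**Figure D5:**
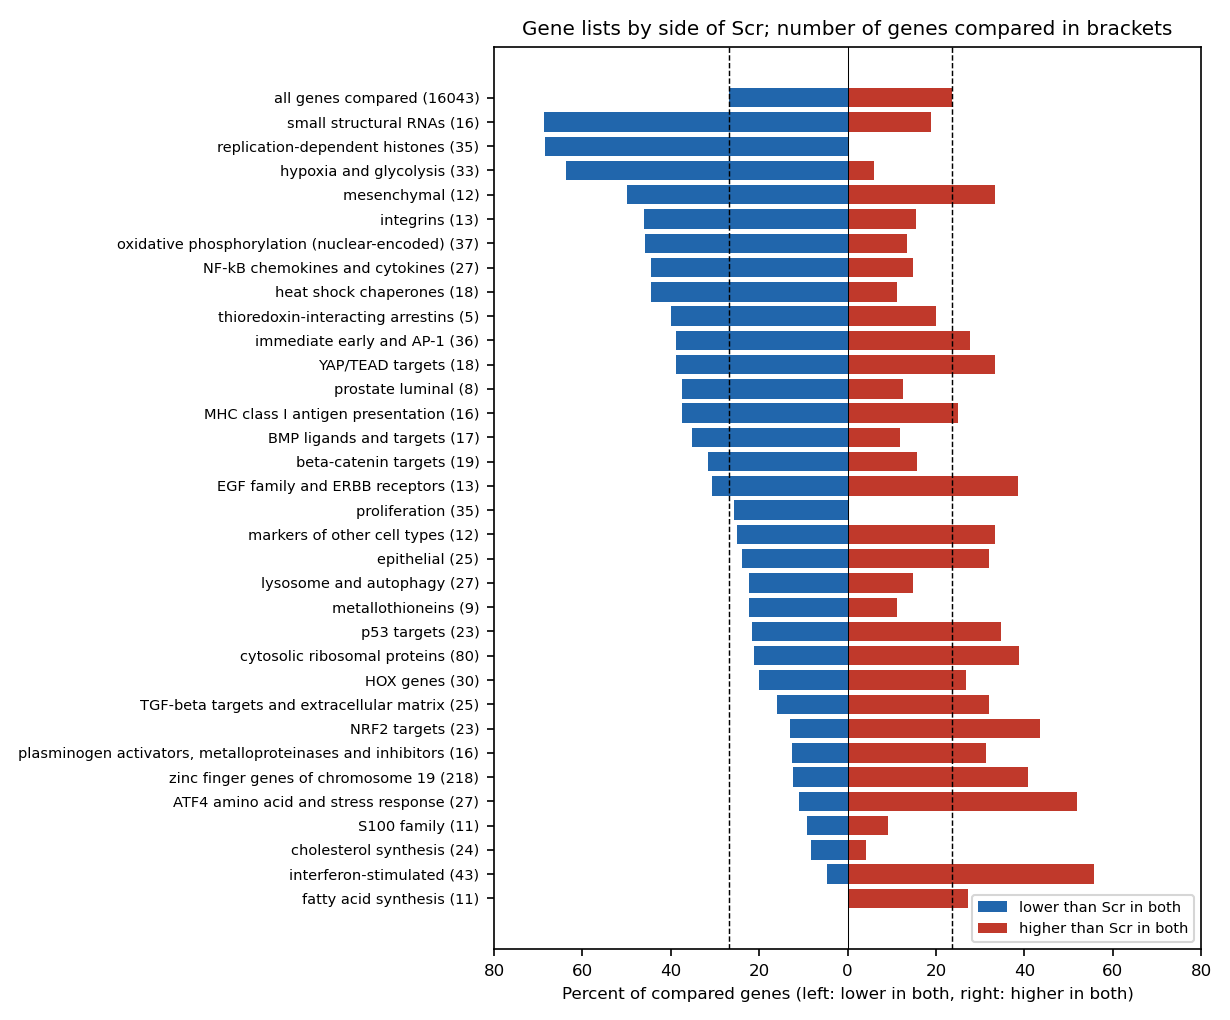
Percent of compared genes of each of 33 lists, and of all genes, that were lower than Scr in both knockouts (blue, to the left) or higher in both (red, to the right); the number of genes compared is in brackets. Dashed lines mark the shares over all genes, 26.9% lower and 23.6% higher. Small structural RNAs, histones and hypoxia genes extend farthest to the left and interferon-stimulated and ATF4 genes farthest to the right.

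By kind, 57 of the 77 higher genes and 71 of the 90 lower genes were protein-coding, against 87.6% of all genes compared. Long noncoding RNAs were 11 of the 77 (14.3%) and 7 of the 90 (7.78%), against 6.98%. By position, chromosome 6 held 15 of the 90 lower genes (16.7%) and 4.78% of all genes compared, and 12 of these 15 genes are the chromosome 6 histones. Chromosome 10 held 9 of the 77 higher genes (11.7%) and 4.11% of all genes compared. Levels varied widely: the highest of the 3 values reached 50 FPKM in 10 of the 77 higher and 18 of the 90 lower genes, against 2033 of the 16043 genes compared. At least 1 value was under 1 FPKM in 20.8% of the higher and 34.4% of the lower genes, against 27.8% of all genes compared.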

How the data were processed

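RNA-Seq of 6 DU145 libraries, 2 per condition, was used through 1 table of 27381 genes in which the authors deposited FPKM values in 3 columns, 1 per condition. The submitters' processing notes name HISAT, StringTie, Cufflinks and GATK, without versions or roles, and the genome build is not given in the sources used here. Of 25136 symbols matched to RefSeq, 15.4% overlapped their GRCh38 position, so the coordinates were read as hg19 and written from 1. Promoters are from RefSeq GRCh38.p14.

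Values were used as scaled by the authors and compared as log2(FPKM + 1), with a call at 1.5-fold in the same direction in both knockouts. With 1 column per condition, the limma fit planned for separate libraries was replaced by this fold minimum, and no p-value is given. The genes named were the 12 highest and 12 lowest called genes by mean change with a value of at least 5 FPKM, called members of the lists, CD24 and RCC2, and the genes next to the minimum; others are said to be chosen after their values were seen. The members, the lists (33, written from memory) and the rules were chosen with earlier results of these data known. Besides the lists in the text, those shown by counts were MHC class I, fatty acid synthesis, TGF-beta, mesenchymal, protease, YAP/TEAD, p53, metallothionein, S100, EGF family, heat shock, lysosome, prostate luminal and HOX genes, in the plot of gene lists. Alternatives were pseudocounts of 0.1 and 5, filters at 1 FPKM, median centring, quantile normalization, protein-coding genes, a 2-fold minimum and, chosen after seeing the data, genes that share no locus. The calculations were tested on simulated data. Python 3.11.15, NumPy 2.4.6, pandas 2.3.3 and matplotlib 3.10.9 were used. A few genes are not reported here.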

Additional observations from a re-analysis of the deposited data

Results flagged for a closer look

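Genes listed at 0 in Scr were outside the genes compared, and 405 of them were above 0 in both knockouts, 3 with at least 1 FPKM in both. All 3 are small RNAs, and they were singled out because a value stands in both knockouts where Scr has none. RNU6ATAC, a small nuclear RNA of the minor spliceosome, had 292 FPKM in CD24 KO and 1583 in RCC2 KO. SNORA57, an H/ACA small nucleolar RNA, had 31.9 and 28.6 FPKM. SCARNA16, a Cajal body RNA, had 21.3 and 4.76 FPKM. No fold is given against a 0, which in such a table can be a failed estimate. The reverse, above 0 in Scr and 0 in both knockouts, was listed for 376 genes, 12 of them with at least 1 FPKM in Scr. Of these 12 genes, 3 were histones (HIST1H3I, HIST1H4A and HIST1H4C at 1.15, 1.24 and 2.55 FPKM in Scr). Another 7 were small RNAs or a microRNA precursor, such as SNORA22 at 331 FPKM and SNORA14B at 292 FPKM in Scr.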

How the results depend on the processing

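The number of genes called depended on the constant added before the log and on the minimum. Adding 0.1 FPKM gave 363 higher and 335 lower genes, including all 167, and adding 5 FPKM gave 15 and 40. With 5 FPKM added, 23 of the 62 named genes no longer passed the minimum. Among them were OASL, IFIT2, IFI44, BMP4, BMP6, MUC1, MYO10, KCNQ3, BIRC3 and SLC7A11. The 2-fold minimum left 9 and 28. With at least 1 FPKM in every column 61 genes were higher and 59 lower, so that 31 lower genes rest on a value under 1 FPKM. Without genes that share a locus, chosen after seeing the data, 51 were higher, 59 lower and 5287 on one side of Scr. Median centring, quantile normalization, a filter of at least 1 FPKM in 1 column and protein-coding genes gave 57 to 85 higher and 71 to 87 lower genes. Quantile normalization shared 142 calls with the 167. For genes on one side of Scr in both knockouts, only median centring and quantile normalization could reverse the sign of the mean change. The other alternatives keep the side of each such gene. No sign reversed among the 62 named genes in the alternatives that gave them a value. The histone list had medians from -1.06 to -0.36 and the small structural RNAs from -1.79 to -0.64. No paired analysis was possible because the table has 1 column per condition; leaving out a library and a fit with the replicate number as a block were not run for the same reason. Without counts, the precision of low values is unknown.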

Other observations

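By share of the genes compared, chromosomes 18 and 21 had the fewest genes higher in both knockouts among the numbered chromosomes, and chromosome 8 the most. On chromosome 18, 10.4% of 221 genes compared were higher in both and 40.7% lower in both. On chromosome 21 the shares were 14.9% and 36.6% of 161 genes. On chromosome 8, 30.0% of 550 genes were higher in both and 13.6% lower in both, against 23.6% and 26.9% over all genes. Chromosome X, outside this ranking, had 32.5% of 483 genes higher in both and 21.9% lower in both. Genes of 1 chromosome share their position and all 3 columns, and no test was run.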
